A study of Mus musculus with 10 samples.

Results

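Nodal signalling was examined through 7 genes: the ligands Nodal and Gdf3, the co-receptor Tdgf1, the secreted antagonists Lefty1 and Lefty2, and the intracellular inhibitors Smad7 and Skil. Members were all array probes whose annotated symbol is one of these names. Of these genes, 6 of 7 had a probe, out of 16593 genes with a probe in the whole series. They were read by 8 probes, of which 7 were bright enough to be tested. Smad7 was not analysed here.

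The cells were KH2 mouse embryonic stem (ES) cells, a line built to switch on a transgene with doxycycline, here one for V5-tagged Sox17, a transcription factor that acts in endoderm development. Total RNA was hybridised to 10 Illumina bead arrays, 5 titled Sox17(+), from cells given doxycycline for 48 h to express Sox17-V5, and 5 titled Sox17(-), the controls, described as not induced. The treatment field names doxycycline for both sets, both carry the same KH2 line, and no other agent, medium or feeder layer is given. The promoter of the transgene and the number of clones are not given in the sources used here, nor is it said whether replicates are separate cultures, so the p-values measure only the spread between these arrays, which may be technical. Replicate numbers in the sample descriptions run to 3 and then start again at titles 4 and 5 of each label. Titles 4-5 are called run 2 here and titles 1-3 run 1, names that stand for this numbering and for nothing else known of the arrays.

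Nodal is a secreted ligand of the TGF-beta family that signals through activin receptors and a co-receptor of the Cripto family to Smad2 and Smad3. In the mouse embryo it maintains the epiblast and patterns the primitive streak, and graded Nodal activity directs cells to mesoderm or definitive endoderm. The Lefty genes are themselves induced by Nodal signalling and encode antagonists that limit its range. Mouse ES cells express several of these genes while self-renewing.

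Promoter windows from RefSeq on build GRCm38.p6 are shown for Nodal and Tdgf1, the ligand and its co-receptor, because Tdgf1 differed between runs below while no difference in Nodal passed a test. Of the members, these 2 have a window in the table used. Each is printed 5′ to 3′ on the strand of the gene, from 250 bases before the annotated start to 50 bases after it. The Nodal window is chr10:61417722-61418021 on the plus strand, with 54% G or C, and the Tdgf1 window is chr9:110946109-110946408 on the minus strand, with 41.7%. Capitals mark matches on either strand to a FOXH1 motif (TGTNNATT), a SMAD motif (CAGAC) or a SOX motif (ACAAT).
Nodal: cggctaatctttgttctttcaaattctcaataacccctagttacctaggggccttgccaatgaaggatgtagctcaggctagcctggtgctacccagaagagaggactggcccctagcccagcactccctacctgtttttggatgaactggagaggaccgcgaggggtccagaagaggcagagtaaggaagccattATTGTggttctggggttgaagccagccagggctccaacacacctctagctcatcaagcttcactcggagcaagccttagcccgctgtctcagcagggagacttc
Tdgf1: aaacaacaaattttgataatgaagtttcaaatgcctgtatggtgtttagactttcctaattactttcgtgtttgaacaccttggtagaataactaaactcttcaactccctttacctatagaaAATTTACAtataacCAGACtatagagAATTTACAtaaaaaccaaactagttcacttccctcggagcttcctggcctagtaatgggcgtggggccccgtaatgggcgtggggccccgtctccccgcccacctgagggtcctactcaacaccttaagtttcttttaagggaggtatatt
The Nodal window held 1 SOX match, on the opposite strand, whose first base lies 54 bases upstream of the start. The Tdgf1 window held FOXH1 matches on the opposite strand at 127 and 101 bases upstream and a SMAD match on the strand of the gene at 113 bases upstream. No match overlapped another. Among 32851 promoter windows of the same length, 12.2% held the FOXH1 motif, 49.6% the SMAD motif and 31% the SOX motif. A match describes letters only, and binding was not measured here.

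Values are deposited probe intensities on a linear scale, normalised between arrays. Differences are on the scale log2(intensity + 16), which understates changes of dim probes, and are followed by their standard error after the sign ±. A probe was tested if it exceeded a background limit of 10.6 on at least 5 arrays, which 14985 probes did. A probe is called when its limma p, adjusted by the Benjamini-Hochberg method over all 14985 probes, is under 0.05. In bulk RNA, fewer cells of a type and less RNA per cell cannot be told apart. The number of arrays limits the precision, and intensities of different probes are not compared as levels of expression.

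Sox17 itself went against its labels. The probe ILMN_2747986 read 67.3 on Sox17(+) 1 and 11.99 to 16.6 on Sox17(+) 2-5, against 30.5 to 32.6 on Sox17(-) 1-3 and 60.6 and 65.3 on Sox17(-) 4-5. A second probe, ILMN_2784446, read 42.9 on Sox17(+) 1 and -2.30 to 4.74 on Sox17(+) 2-5, under the background limit. On Sox17(-) it read 6.11 to 19.2 on titles 1-3 and 32.2 and 35.4 on titles 4-5. Where these probes lie relative to the transgene is unknown here, so every direction below is for arrays as labelled. Over the tested probes the array labelled Sox17(+) 1 had correlations of 0.9939 and 0.995 with Sox17(-) 5 and 4 and of 0.9703 to 0.9746 with Sox17(+) 2-5. Values are therefore also described in 4 title groups that were drawn with earlier results known: Sox17(+) 4-5, Sox17(+) 2-3, Sox17(-) 4-5 with Sox17(+) 1, and Sox17(-) 1-3. No test was made across the 4 groups. However, the run comparison within Sox17(+) without Sox17(+) 1 sets Sox17(+) 4-5 against Sox17(+) 2-3. That array was left out with earlier results known, so calls in that fit are not independent of the grouping. Of 12 listed pluripotent markers 11 had a probe, and these 11 lay above the limit on every array, with sums of 51350 to 57439 on Sox17(+) arrays and 57149 to 60375 on Sox17(-) arrays.

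**Figure D1:**
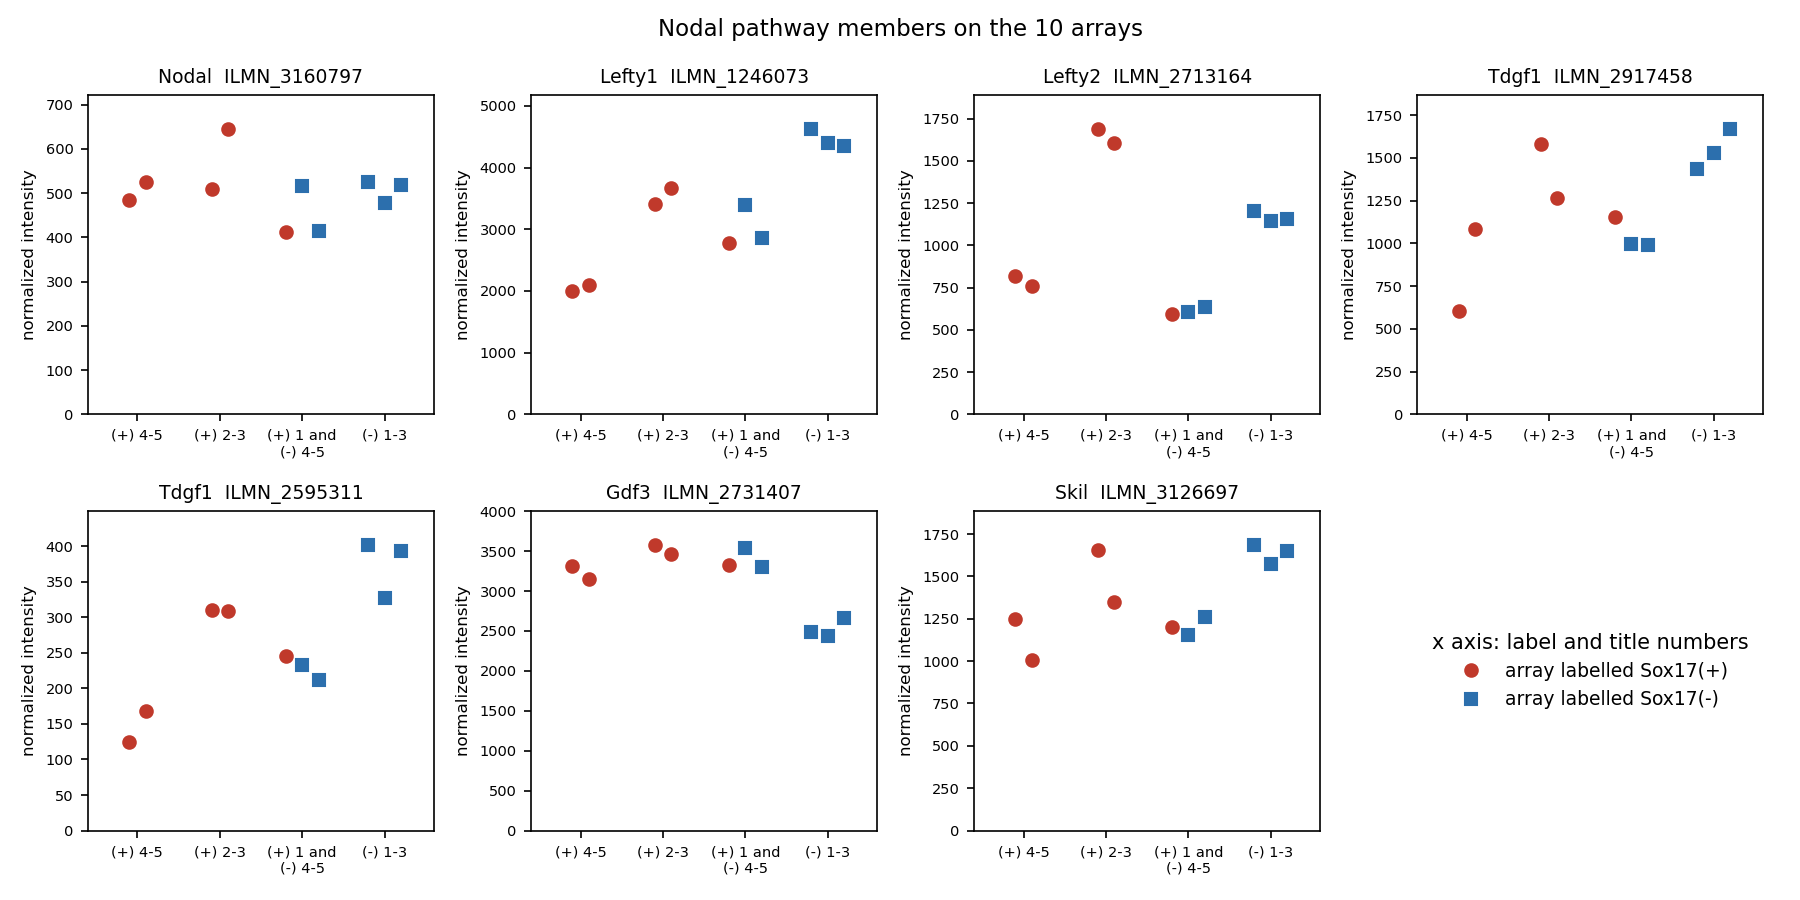
Intensity (linear, normalised by the authors) of each tested member probe on each of the 10 arrays, 1 panel per probe, with arrays placed by title group and coloured by label. Lefty2 falls into 4 separate levels, from 596 to 638 in Sox17(-) 4-5 with Sox17(+) 1 up to 1605 to 1687 in Sox17(+) 2-3, while the title groups of Nodal overlap.

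The ligand Nodal showed no called difference in any comparison. Its probe, ILMN_3160797, read 411, 510, 645, 484 and 525 on Sox17(+) 1 to 5, against 524, 478, 519, 517 and 415 on Sox17(-) 1 to 5. The labels overlapped, and the highest and the lowest array were both Sox17(+). The means were 515 ± 85 in Sox17(+) and 491 ± 46 in Sox17(-) (SD, n = 5 each), a difference of 0.06 ± 0.12 (limma adjusted p = 0.732, 95% interval -0.20 to 0.31). Between runs Nodal differed by -0.12 ± 0.11 in Sox17(-) (limma adjusted p = 0.538, 95% interval -0.40 to 0.15). In Sox17(+) the run difference was -0.02 ± 0.21 with all 5 arrays (limma adjusted p = 0.984) and -0.18 ± 0.14 without Sox17(+) 1 (limma adjusted p = 0.577).

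Gdf3 encodes a second ligand of the family, known in the mouse embryo as a Nodal-like factor that also acts through Cripto. Its probe, ILMN_2731407, read 3323, 3572, 3459, 3316 and 3155 on Sox17(+) 1 to 5, against 2492, 2440, 2669, 3540 and 3297 on Sox17(-) 1 to 5. The lowest 3 values of the series were Sox17(-) 1-3, and Sox17(-) 4-5 lay within the range of the Sox17(+) arrays. Means were 3365 ± 158 in Sox17(+) and 2888 ± 500 in Sox17(-) (SD, n = 5 each), a label difference of 0.24 ± 0.11 that did not pass (limma adjusted p = 0.144, 95% interval -0.01 to 0.48).

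Within Sox17(-), Gdf3 was the only member probe called higher in run 2, at 3419 ± 172 (SD, n = 2) against 2533 ± 120 in run 1 (SD, n = 3). The difference was 0.43 ± 0.08 (limma adjusted p = 0.0340). Within Sox17(+), run 2 averaged 3236 ± 114 (n = 2) and run 1 3451 ± 124 (n = 3, SD), a difference of -0.09 ± 0.13 that was not called (limma adjusted p = 0.890). The test of the difference between these run differences gave -0.52 ± 0.14, with an unadjusted p of 0.00413 and a limma adjusted p of 0.708 over all probes, so it did not pass the correction. Leaving out any 1 of the 5 Sox17(-) arrays ended the call of Gdf3 in Sox17(-), with limma adjusted p from 0.0683 to 0.134 and differences from 0.38 to 0.48.

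Tdgf1 encodes Cripto, the membrane-anchored co-receptor that Nodal needs to engage activin receptors. Probe ILMN_2917458 read 1154, 1582, 1267, 605 and 1083 on Sox17(+) 1 to 5, against 1438, 1528, 1668, 995 and 990 on Sox17(-) 1 to 5. Probe ILMN_2595311 read 246, 310.5, 309.7, 125 and 168 on Sox17(+) 1 to 5, against 401, 327, 394, 233 and 212 on Sox17(-) 1 to 5. Both probes were lower on titles 4-5 than on titles 1-3 of the same label on every array.

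Between labels the Tdgf1 probes differed by -0.25 ± 0.24 (ILMN_2917458, limma adjusted p = 0.455) and -0.44 ± 0.26 (ILMN_2595311, limma adjusted p = 0.217), and neither was called. With run as a block, ILMN_2595311 kept its difference and was called (-0.44 ± 0.11, limma adjusted p = 0.0179). Within run 2 alone it differed by -0.57 ± 0.15 (limma adjusted p = 0.0368) and within run 1 alone by -0.36 ± 0.14 (limma adjusted p = 0.223). The first 2 of these fits called more of all probes than the label fit without a block, and run 1 alone called no probe of any gene. In Sox17(-) both probes were called lower in run 2, with differences of -0.63 ± 0.09 (limma adjusted p = 0.0136) and -0.70 ± 0.11 (limma adjusted p = 0.0187). In Sox17(+) the run differences were -0.70 ± 0.27 and -0.91 ± 0.18, and neither was called with all 5 arrays (limma adjusted p = 0.614 and 0.348). Without Sox17(+) 1, ILMN_2595311 was called (-1.02 ± 0.15, limma adjusted p = 0.0225) and ILMN_2917458 was not (-0.79 ± 0.27, limma adjusted p = 0.199). The Sox17(-) call of ILMN_2917458 ended without Sox17(-) 2, 4 or 5 (limma adjusted p = 0.0516, 0.0649 and 0.0711), and that of ILMN_2595311 without Sox17(-) 1, 3, 4 or 5 (0.0667, 0.0671, 0.0622 and 0.0929).

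Lefty1 encodes a secreted antagonist that binds Nodal and its co-receptor. Its probe, ILMN_1246073, read 2774, 3407, 3672, 1998 and 2089 on Sox17(+) 1 to 5, against 4623, 4403, 4354, 3397 and 2859 on Sox17(-) 1 to 5. The lowest arrays were Sox17(+) 4-5 and the highest Sox17(-) 1-3, and the labels overlapped because Sox17(+) 2-3 lay above Sox17(-) 4-5. In both labels, the titles 4-5 lay below the titles 1-3.

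Lefty1 averaged 2788 ± 755 in Sox17(+) and 3927 ± 761 in Sox17(-) (SD, n = 5 each). The label difference of -0.51 ± 0.19 was not called (limma adjusted p = 0.0781, 95% interval -0.94 to -0.09), although that unadjusted interval lies below 0. With run as a block the same difference was called (-0.51 ± 0.09, limma adjusted p = 0.00654). It was -0.61 ± 0.13 within run 2 alone (limma adjusted p = 0.0177) and -0.45 ± 0.13 within run 1 alone (limma adjusted p = 0.160). The fits with run as a block and in run 2 alone called more of all probes than the label fit without a block. The fit in run 1 alone called no probe of any gene, so this contrast is not particular to Lefty1. Within run 2, Sox17(+) arrays differ from Sox17(-) arrays both in label and in the title groups above, and the 2 cannot be told apart there.

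Between runs Lefty1 was called lower in Sox17(-), at 3128 ± 380 in run 2 (SD, n = 2) against 4460 ± 144 in run 1 (SD, n = 3), a difference of -0.51 ± 0.10 (limma adjusted p = 0.0319). In Sox17(+) run 2 averaged 2043 ± 64 (n = 2) and run 1 3284 ± 461 (n = 3, SD). That difference was -0.67 ± 0.17 with all 5 arrays (limma adjusted p = 0.403) and was called without Sox17(+) 1 (-0.79 ± 0.11, limma adjusted p = 0.0181). Without Sox17(-) 1, 2, 3 or 5 the call in Sox17(-) ended (limma adjusted p = 0.102, 0.0893, 0.0845 and 0.123).

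Lefty2 encodes the close paralog of Lefty1, with the same antagonist role, and whether each probe reads only its own gene was not tested here. Its probe, ILMN_2713164, read 596, 1687, 1605, 819 and 762 on Sox17(+) 1 to 5, against 1201, 1143, 1159, 604 and 638 on Sox17(-) 1 to 5. The 4 title groups did not overlap. Sox17(+) 2-3 were highest, at 1605 and 1687, followed by Sox17(-) 1-3 at 1143 to 1201, Sox17(+) 4-5 at 762 and 819, and Sox17(-) 4-5 with Sox17(+) 1 at 596 to 638.

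Between labels Lefty2 averaged 1094 ± 512 in Sox17(+) and 949 ± 300 in Sox17(-) (SD, n = 5 each), a difference of 0.14 ± 0.31 that was not called (limma adjusted p = 0.759, 95% interval -0.54 to 0.83). Within Sox17(-) it fell to 621 ± 24 in run 2 (SD, n = 2), against 1168 ± 30 in run 1 (SD, n = 3). The difference of -0.89 ± 0.08, or 1.86-fold, had the lowest adjusted p among the members (limma adjusted p = 0.00253) and stayed called without any 1 Sox17(-) array. Within Sox17(+) the difference was -0.56 ± 0.45 with all 5 arrays (limma adjusted p = 0.827). Without Sox17(+) 1 it was -1.04 ± 0.11, or 2.06-fold lower in run 2, and was called (limma adjusted p = 0.00807).

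Skil encodes SnoN, a nuclear corepressor that binds Smad proteins and is itself a TGF-beta target. The brighter probe, ILMN_3126697, read 1200, 1658, 1347, 1250 and 1006 on Sox17(+) 1 to 5, against 1683, 1571, 1649, 1154 and 1259 on Sox17(-) 1 to 5. The labels overlapped and averaged 1292 ± 239 in Sox17(+) and 1463 ± 241 in Sox17(-) (SD, n = 5 each), a difference of -0.18 ± 0.15 (limma adjusted p = 0.374). In Sox17(-) it was called lower in run 2, at 1207 ± 74 (SD, n = 2) against 1634 ± 57 in run 1 (SD, n = 3), a difference of -0.43 ± 0.08 (limma adjusted p = 0.0319). That call ended when any 1 of the Sox17(-) arrays was left out (limma adjusted p from 0.0749 to 0.129). In Sox17(+) the run difference was -0.30 ± 0.19 with all 5 arrays and -0.41 ± 0.16 without Sox17(+) 1, and neither passed (limma adjusted p = 0.784 and 0.247). The other Skil probe, ILMN_2775130, lay between -10.4 and -1.66 on all 10 arrays, under the background limit. With values below 0 set to 0 it was equal on all arrays, so it gives no difference to test.

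Across the members, 0 of 7 tested probes were called between Sox17(+) and Sox17(-), in a comparison that called 19.5% of all tested probes. Their median difference was -0.18, beside 0.01 over all tested probes. None was called by limma without Sox17(+) 1 either, in a fit that called 45.5% of all tested probes. Leaving out 1 array at a time moved the count over all probes between 14 and 6821, beside 2919 with all arrays. Of the members 1, Lefty1, had an unadjusted p under 0.05 with all arrays (0.0222). Between the runs of Sox17(-), 1 of 7 was called higher (Gdf3) and 5 of 7 lower (Lefty1, Lefty2, both Tdgf1 probes and Skil), where 7.59% of all probes were called, 582 higher and 555 lower. The members' median was -0.51, beside -0.01 over all probes. With all probes tested and none left out as dim, Lefty2 was the 1 member probe still called in Sox17(-) (limma adjusted p = 0.0184), while the other 5 lay at 0.0606 to 0.108. Between the runs of Sox17(+), 0 of 7 were called, and 0% of all probes were, with 1172 probes at an unadjusted p under 0.05. Without Sox17(+) 1, 3 of 7 were called, all lower (Lefty1, Lefty2 and 1 Tdgf1 probe), where 3.83% of all probes were called. No member passed the test of a difference between the run differences of the labels (limma adjusted p from 0.708 to 0.973, with 0 of all probes called and 991 at an unadjusted p under 0.05).

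**Figure D2:**
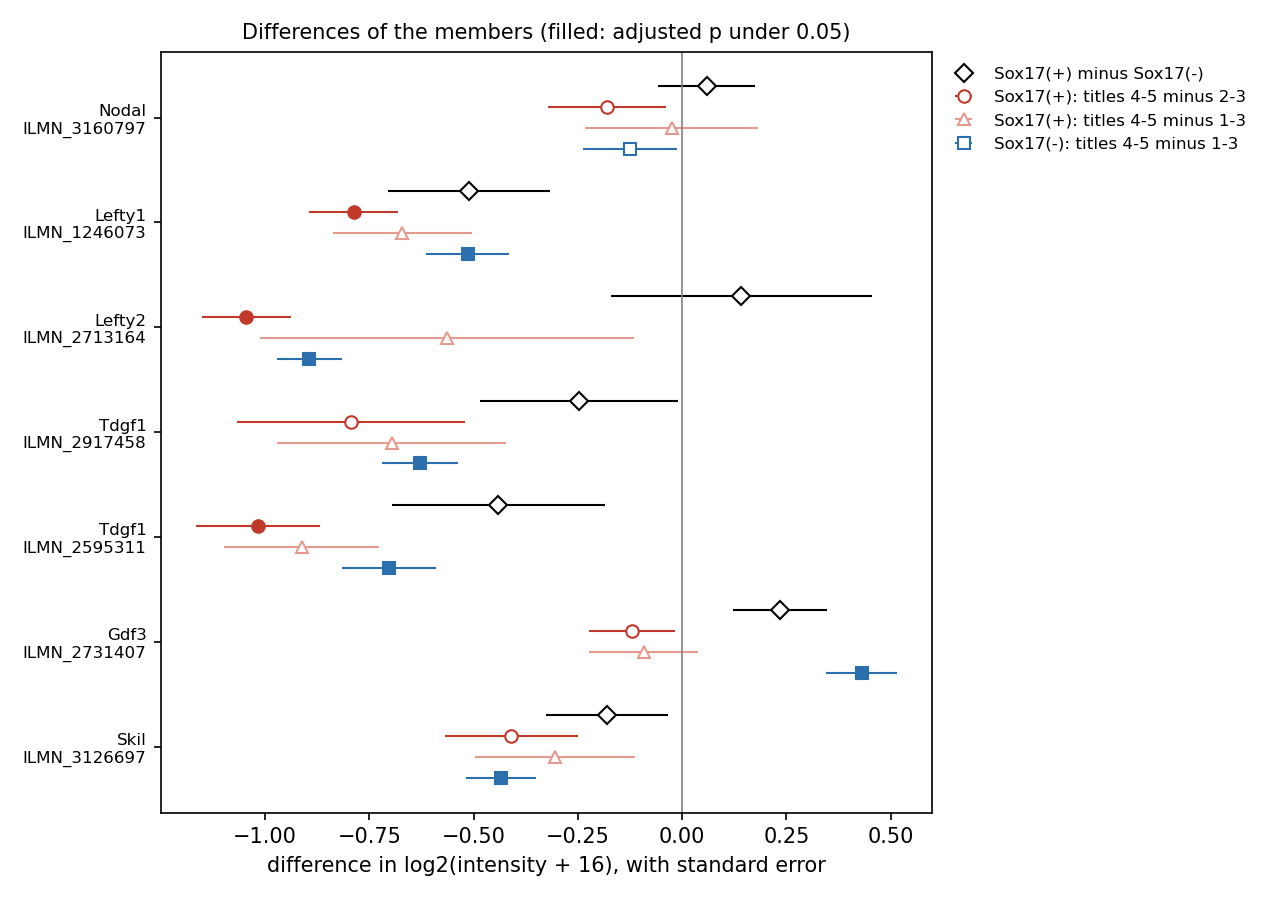
Difference in log2(intensity + 16) for each tested member probe (points, with standard errors as bars, filled where the limma adjusted p is under 0.05), for Sox17(+) minus Sox17(-) for titles 4-5 minus titles 1-3 within each label, and for titles 4-5 minus titles 2-3 of Sox17(+), which leaves out Sox17(+) 1. All tested member probes but Gdf3 lie below 0 in the run comparisons of both labels, Nodal closest to 0 at -0.12 in Sox17(-) and -0.02 in Sox17(+), whereas Gdf3 is at 0.43 in Sox17(-) and at -0.09 in Sox17(+).

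Markers of other cell types also differed between these arrays. Endoderm markers, 13 of 14 with a probe, summed to 11301 and 11405 on Sox17(+) 4-5, 6981 and 7333 on Sox17(+) 2-3, and 17765 on Sox17(+) 1. They summed to 18041 and 16684 on Sox17(-) 4-5 and to 7465 to 7599 on Sox17(-) 1-3. Of 12 tested, 8 were called higher in run 2 of Sox17(-) and 0 lower. Between labels, with all arrays, 0 were called. Between the runs of Sox17(+), 0 were called with all 5 arrays. Without Sox17(+) 1, 5 were called higher in run 2 and 0 lower, while Sox7 (-0.26), Sparc (-0.24) and Lamb1 (-0.16) were lower and not called. For these counts and those of the next paragraph, the share of all tested probes called was 19.5% between labels. It was 7.59% between the runs of Sox17(-) and 3.83% between those of Sox17(+) without Sox17(+) 1. Among the Sox17(+) arrays the order by Lefty2 was the reverse of the order by endoderm sum, and among the Sox17(-) arrays titles 4-5 had the higher sums and the lower Lefty2. Lefty1 and Tdgf1 did not follow that order within Sox17(+). Sox17(+) 1, with the highest sum there, read 2774 for Lefty1, above Sox17(+) 4-5 at 1998 and 2089. It also read above them for Tdgf1, at 1154 against 605 and 1083 (ILMN_2917458) and 246 against 125 and 168 (ILMN_2595311). The part of the endoderm markers in the differences of the members was not tested.

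Fibroblast markers, 8 of 8 with a probe, summed to 142 to 224 on Sox17(+) arrays and 210 to 348 on Sox17(-) arrays, with Col3a1 and Postn under the limit on all 10. Within Sox17(-) they summed to 210 and 213 on titles 4-5 and to 334 to 348 on titles 1-3. Of 4 tested, 2 were called higher and 2 lower between labels and 1 lower in run 2 of Sox17(-). Trophoblast markers, 8 of 8 with a probe, summed to 3955 to 4665 on Sox17(+) arrays and 3103 to 3919 on Sox17(-) arrays. Elf5, Hand1 and Gata3 lay under the limit on all arrays. Of 5 tested (Cdx2, Eomes, Krt8, Krt18 and Tfap2c), 0 were called between labels. In run 2 of Sox17(-), 1 was called higher (Tfap2c) and 2 lower (Krt8 and Krt18). Between the runs of Sox17(+), 0 of 5 were called with all 5 arrays. Without Sox17(+) 1, 3 of 5 were called lower in run 2 of Sox17(+), namely Cdx2 (-0.91), Krt8 (-1.09) and Krt18 (-0.94). Of the pluripotent markers, 11 were tested, and 1 was called higher and 4 lower between labels, while 1 was called higher between the runs of Sox17(-). The part of these lists in the members' differences was not tested either.

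**Figure D3:**
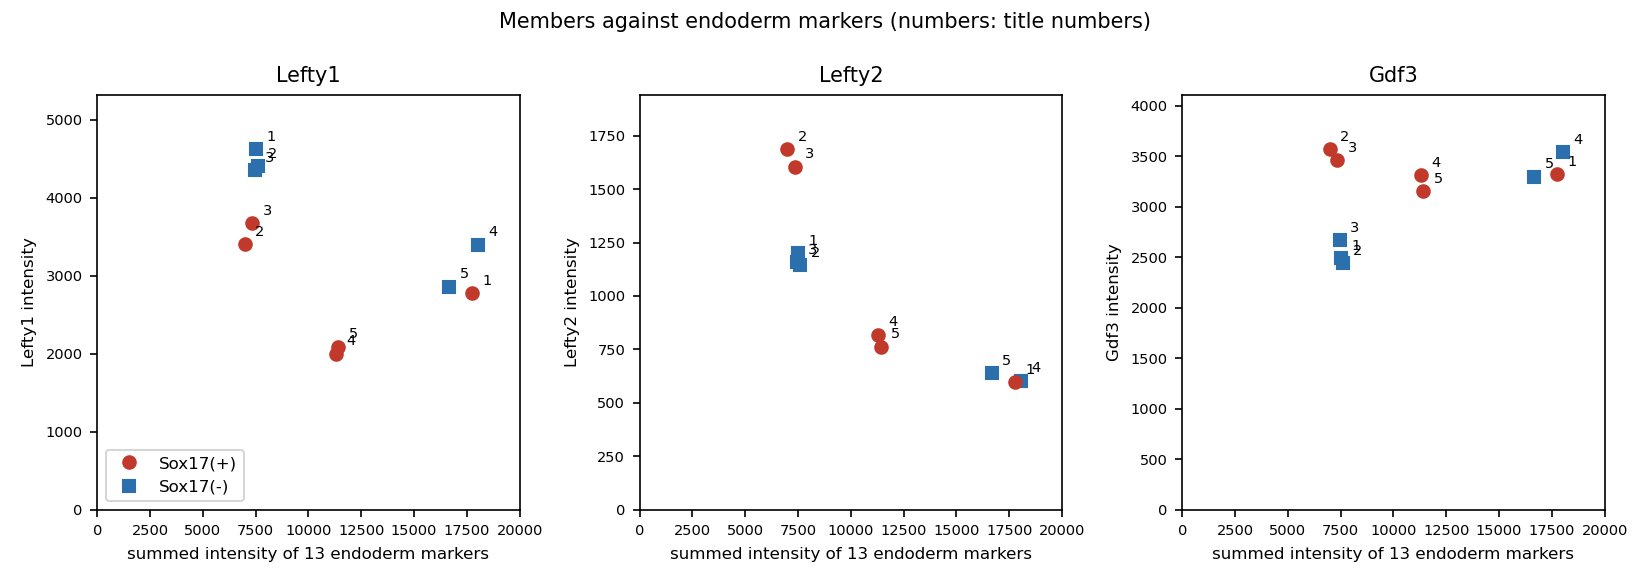
Intensity of the Lefty1, Lefty2 and Gdf3 probes (linear, 1 panel each) against the summed intensity of 13 endoderm markers on each of the 10 arrays, coloured by label and numbered by title. Arrays with sums of 16684 to 18041 read 596 to 638 for Lefty2. For Lefty1 they read 2774 to 3397, above Sox17(+) 4-5 at 1998 and 2089. No test was made because the arrays fall into separate groups.

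The rest of the pathway was read from 7 lists of 53 genes, of which 32 were tested by their brightest probe. Between labels 3 were called higher and 4 lower, or 7 of 32, where 19.5% of all tested probes were called. Between the runs of Sox17(-), 1 of 32 was called higher (Otx2) and 0 lower, where 7.59% of all probes were called. Between the runs of Sox17(+), 0 of 32 were called without Sox17(+) 1, where 3.83% of all probes were called, and with all arrays no probe of any gene was called. These lists were drawn up with earlier results of the same arrays known.

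Among other ligands of the family, 5 of 8 were tested and 3 called between labels. Tgfb2, which encodes TGF-beta 2, read 31.2, 69.9, 65.6, 62.1 and 54.9 on Sox17(+) 1 to 5, against 25.0, 26.0, 12.9, 15.7 and 12.9 on Sox17(-) 1 to 5. The labels did not overlap, and the difference was 1.06 ± 0.17 (limma adjusted p = 0.0188). Inhbb, the activin beta B subunit, read 1331 to 1835 on Sox17(+) arrays (median 1623) and 1282 to 1348 on Sox17(-) arrays (median 1308), a difference of 0.30 ± 0.09 (limma adjusted p = 0.0463). Bmp7, a bone morphogenetic protein, read 46.7 to 71.3 on Sox17(+) arrays and 71.1 to 118 on Sox17(-) arrays, a difference of -0.55 ± 0.15 (limma adjusted p = 0.0321).

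Of the receptors, 6 of 8 were tested and 0 called by limma between labels with all arrays or between runs. Named from it were Acvr2b, a type II activin receptor (0.20 ± 0.08 between labels, limma adjusted p = 0.102), and Tgfbr1, a type I TGF-beta receptor (-0.37 ± 0.14, limma adjusted p = 0.0725). A second Tgfbr1 probe had the opposite sign (0.27). Of the transducers, 6 of 7 were tested and 0 called, among them Smad4, the common partner Smad (-0.23 ± 0.09, limma adjusted p = 0.0911), and Drap1, a transcriptional corepressor (-0.15 ± 0.07, limma adjusted p = 0.160). Probes of the Smad regulator Trim33 disagreed, since its brightest was not called (0.18) and another, ILMN_1259222, was lower in Sox17(+) (-1.14, limma adjusted p = 0.0217), while the remaining probes, at 0.15 and 0.13, were not called and had the sign of the brightest.

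Fst, which encodes the activin-binding antagonist follistatin, was the 1 called gene of 2 tested extracellular antagonists. It read 13.1, 3.94, 8.02, 4.21 and 0.293 on Sox17(+) 1 to 5, under the background limit on 4 of 5, against 17.2 to 33.1 on Sox17(-) arrays (-0.88 ± 0.16, limma adjusted p = 0.0192). Fst met the filter of at least 5 arrays through the Sox17(-) arrays, so its call is not independent of the filter. Of 8 tested intracellular inhibitors, Smurf1, a ubiquitin ligase for Smads and receptors, was called. It read 39.4 to 62.6 on Sox17(+) arrays and 63.9 to 80.5 on Sox17(-) arrays (-0.50 ± 0.11, limma adjusted p = 0.0217). Furin, a convertase that can process the Nodal precursor, read 1973 on Sox17(+) 1 and 939 to 1089 on Sox17(+) 2-5, against 1575 to 1940 on Sox17(-) arrays (-0.57 ± 0.18, limma adjusted p = 0.0468). A second Furin probe was also called lower (-0.66, limma adjusted p = 0.0464).

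Of 12 listed target genes, 4 were tested and 1 called. Otx2, a homeobox gene of the epiblast and forebrain, read 778, 757, 931, 899 and 1105 on Sox17(+) 1 to 5, against 360.1, 360.6, 366, 793 and 722 on Sox17(-) 1 to 5. It was higher in Sox17(+) (0.84 ± 0.23, limma adjusted p = 0.0337) and in run 2 of Sox17(-) (1.03 ± 0.08, limma adjusted p = 0.00183). Sox17(-) 4 lay within the range of the Sox17(+) arrays and Sox17(-) 5 just below it. With the array set (Sox17(+) 2-5 against the other 6) as a block, the label difference rests on Sox17(+) 1 alone against Sox17(-) 1-5, and 0 of all tested probes were called by limma (724 at an unadjusted p under 0.05). There the differences were 0.66 for Otx2, 0.47 for Tgfb2, 0.23 for Inhbb, 0.19 for Furin, -0.35 for Bmp7, -0.38 for Smurf1 and -0.45 for Fst, so that Furin alone turned its direction. Without Sox17(+) 1 all 7 were called (limma adjusted p from 8.32e-05 to 0.0202), in a fit that called 45.5% of all tested probes. With each of the other 9 arrays left out in turn, 49 of 63 calls of these genes were lost, those of Inhbb and Furin in all 9 fits, and Tgfb2 kept its call in 4 of 9. The other tested genes of the lists were not read in the label fit without Sox17(+) 1. Some of them also separated by label there. Tgfbr1 read 970 to 1166 on Sox17(+) 2-5 and 1385 to 1635 on Sox17(-) arrays, and Smad4 2273 to 2619 and 2795 to 3225. Others overlapped, such as Tgfbr2 (63.1 to 77.8 and 68.0 to 80.2).

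**Figure D4:**
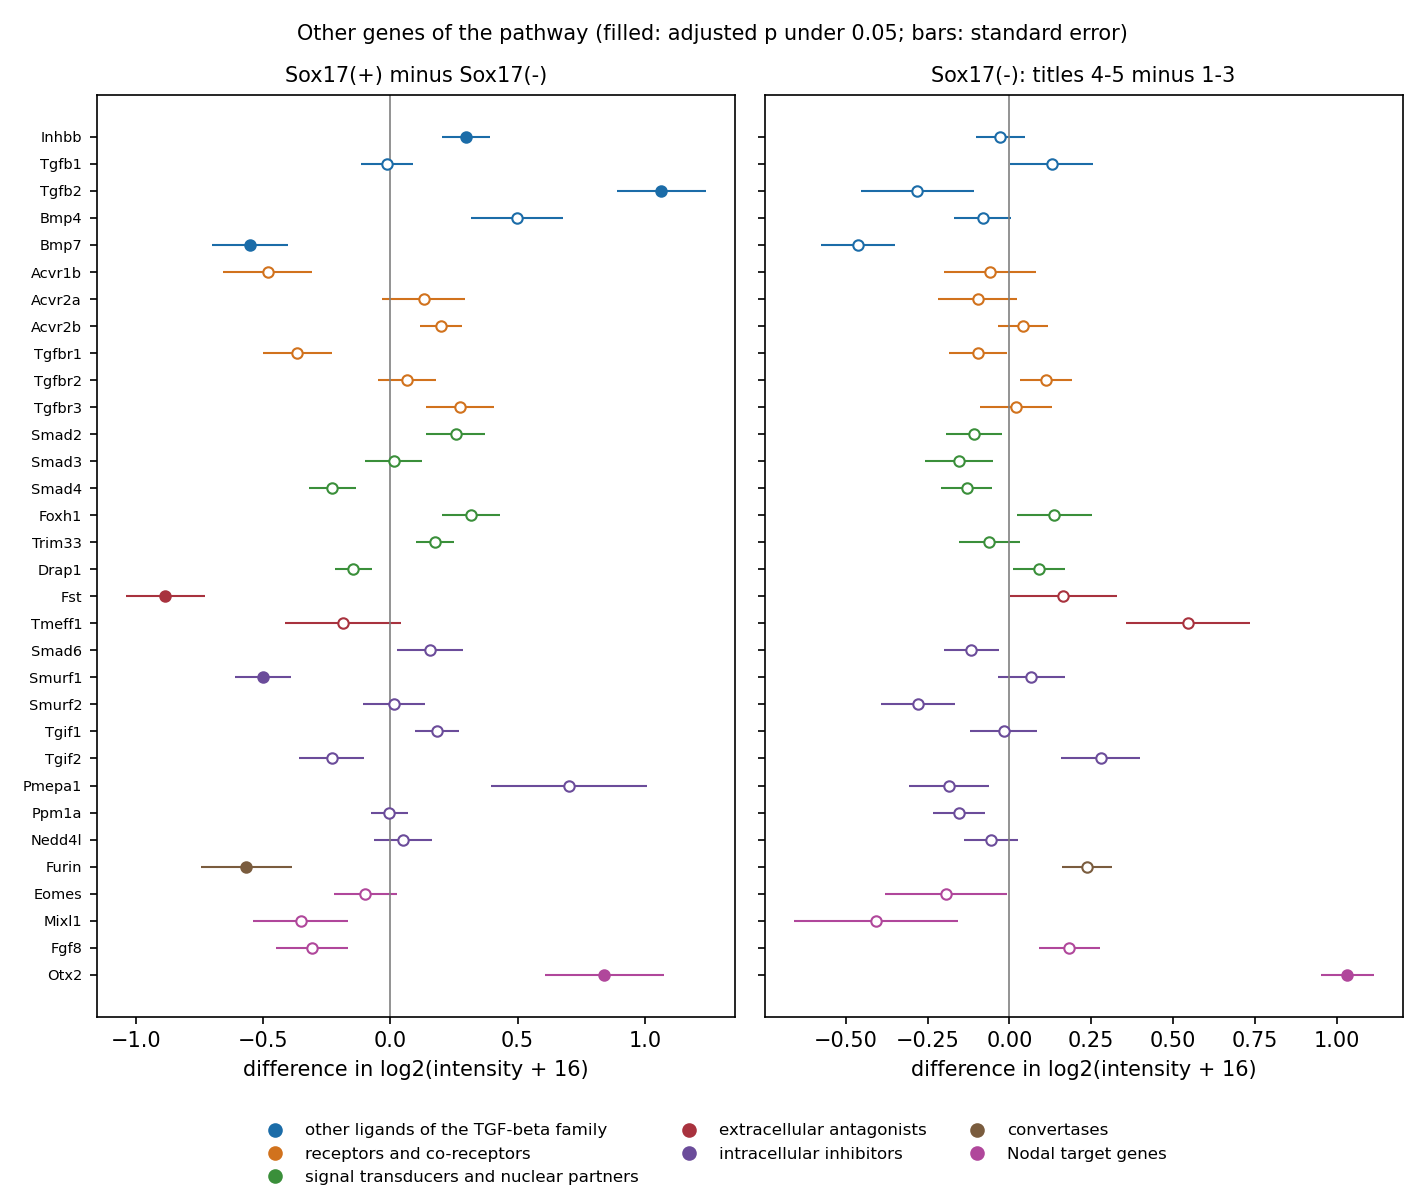
Difference in log2(intensity + 16) for the 32 tested genes of the other pathway lists (points, with standard errors as bars, filled where the limma adjusted p is under 0.05, coloured by list), for Sox17(+) minus Sox17(-) on the left and for titles 4-5 minus titles 1-3 within Sox17(-) on the right. On the left 3 genes lie filled above 0 and 4 below, and on the right Otx2 alone is filled.

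Genes whose log2 values followed a member most closely over the 10 arrays were named from 10083 other genes. These correlations are descriptions, since the arrays fall into separate title groups that all genes share. For Lefty2 they were Bhlhe40, a basic helix-loop-helix transcription repressor (Pearson r = 0.993, Spearman rho = 0.976), Aoc3, an amine oxidase (0.991 and 0.939), and Kbtbd6 (0.989 and 0.939). Bhlhe40 read 611 and 627 on Sox17(+) 4-5, 1687 and 1779 on Sox17(+) 2-3, 323 to 381 on Sox17(-) 4-5 with Sox17(+) 1, and 1036 to 1130 on Sox17(-) 1-3, the same order of title groups as Lefty2. Its difference between the runs of Sox17(-) was -1.57 ± 0.10. Bhlhe40 was picked because it followed Lefty2 on these same arrays. That order and that difference therefore follow from the selection and are no separate result.

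For Lefty1 the closest were Foxn4 (r = 0.989, rho = 0.976), Ephx1, a microsomal epoxide hydrolase (0.982 and 0.952), and Slc9b2 (0.981 and 0.927). For Tdgf1 they were Det1 (r = 0.95, rho = 0.855), Necab2 (0.938 and 0.867) and Gm10413 (0.931 and 0.855). For Nodal they were Kif1c (r = 0.881, rho = 0.879), which lay at or under the background limit on 3 of 5 Sox17(+) and 2 of 5 Sox17(-) arrays, Polg, the mitochondrial DNA polymerase (0.88 and 0.915), and Mrpl51 (0.878 and 0.806). The highest correlations of Nodal were below those of the other 3 members.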

How the data were processed

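Per the labels, total RNA was prepared with Trizol followed by RNeasy columns and amplified to biotin-labelled cRNA. Each deposited value is the intensity of a probe on an array, which the authors had background-subtracted and normalised between arrays, judged from the values (25.5% lie below 0, and the 75th percentile is 250.007 on every array). No source used here names the method. Of 25697 probes, 23978 carry 1 symbol, and for 23962 the symbol was matched through the Entrez identifier of the platform annotation. Another table, without normalisation, has 20 per-sample columns that match no label and was not used.

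Intensities below 0 were set to 0, 16 was added and log2 taken. The background SD of 6.45, from negative values mirrored about 0, gave the limit of 10.6 (95th percentile) and a stricter one of 15.0. Tests used limma 3.58.1 in R 4.3.3 (lmFit, eBayes, two-sided) over 14985 probes of 10087 genes, with Benjamini-Hochberg adjustment, and were tested on simulated data. The dim Skil probe was equal on all arrays once set to 0, so its planned exact permutation test is void. A gene other than a member was read by its brightest probe. Label, run within each label and their interaction were compared. Named were all members, up to 3 called genes of each list (or the 2 with the brightest probes), and the 3 genes closest to Nodal, Lefty1, Lefty2 and Tdgf1. Members and lists were chosen with earlier results of these data known. Alternatives were the added value, the filter, quantile normalisation, array weights, probe means, blocks, single runs and leaving out each array. Plots used matplotlib 3.10.9.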

Additional observations from a re-analysis of the deposited data

Results flagged for a closer look

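Gdf3 was flagged because its 2 run 2 arrays lay below all run 1 arrays in Sox17(+) and above all of them in Sox17(-). In Sox17(+) the gap was narrow, from 3316 on Sox17(+) 4 to 3323 on Sox17(+) 1. The run difference there was not called (-0.09 ± 0.13, limma adjusted p = 0.890). The difference between these run differences was -0.52 ± 0.14. It did not pass the correction over all probes (limma adjusted p = 0.708, with an unadjusted p of 0.00413), and it did not pass without Sox17(+) 1 either (-0.55, limma adjusted p = 0.193). Among 16 groups of 5 arrays, over the 8 member probes and both labels, 0 held an array that stood apart from its group.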

How the results depend on the processing

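The count of probes called between labels, of 14985 that passed the filter, depended on single arrays. It was 2919 with all arrays and 14 to 6821 with each left out. It was 6821, 17, 639, 14 and 16 without Sox17(+) 1 to 5, and 21, 34, 52, 1864 and 1947 without Sox17(-) 1 to 5. It was 1672 with 1 added before log2, 549 with no filter, 7313 with array weights, 0 with the array set as a block, 0 in run 1 alone and 4400 in run 2 alone. At an unadjusted p under 0.05 the fits with 0 calls had 724 and 2987 probes, and with the set as a block only Sox17(+) 1 shares a set with Sox17(-) arrays. Title numbers were not taken to pair the arrays, because not every same-numbered pair deviated together (correlations of deviations of -0.06, 0.31, 0.29, 0.30 and 0.31 for numbers 1 to 5) and 1 of 5 correlated best with its own number. With the number as a replicate block the count was 3344, and with run as a block 3984, and Lefty1 (limma adjusted p = 0.0171 with the title number) and Tdgf1 probe ILMN_2595311 (0.0372) were called.

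Between the runs of Sox17(-) the count was 1137, 645 with 1 added, 2372 with 64 added, 535 with no filter, 1793 with the stricter limit, and 371 to 494 with an array left out. Between the runs of Sox17(+) it was 0, 2 with 1 added, 2 with no filter, 940 with array weights, 1121 in a fit over 9 arrays, and 0 to 574 with an array left out, the 574 being without Sox17(+) 1. For the difference between run differences it was 0, 3 with 1 added, 8 with no filter, 3 with array weights, and 0 to 2 with an array left out.

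Of the alternative values of the members, 384 kept their direction and side of the threshold, 32 lost a call, 17 gained one and 18 changed sign. With the array set as a block the label difference turned to -0.24 for Nodal and -0.59 for Lefty2, and in run 2 alone that of Gdf3 turned to -0.0785. That of Furin, which is not a member and lies outside these counts, turned to 0.19 with the array set as a block. With array weights the difference between run differences turned to -0.12 for Nodal and -0.0850 for Lefty2. With an array left out, the label difference ranged from -0.0237 to 0.134 for Nodal and from -0.0438 to 0.325 for Lefty2. Run differences of Nodal ranged from -0.180 to 0.135 in Sox17(+) and from -0.277 to 0.0279 in Sox17(-). Differences between run differences ranged from -0.0550 to 0.260 for Nodal, -0.15 to 0.59 for Lefty2, -0.48 to 0.34 for Tdgf1 probe ILMN_2917458 and -0.0265 to 0.283 for Skil. Array weights also made the label differences of Lefty1 (-0.57, limma adjusted p = 0.0252) and Gdf3 (0.33, limma adjusted p = 0.0198) pass. That fit called more of all probes than any other label fit counted above, so passing it is not particular to these members. With no filter, Lefty2 alone stayed called between the runs of Sox17(-). The cause of these changes was not tested. Some settings also use fewer arrays or more probes, and the part of that was not tested either.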
